A study of Mus musculus with 12 samples.

Results

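The matrix metalloproteinase genes Mmp2, Mmp3, Mmp9, Mmp11, Mmp13 and Mmp14 and the tissue inhibitor genes Timp1, Timp2 and Timp3 were followed in mouse embryonic fibroblasts, 9 genes among the 10674 that were tested. They were taken by name as members of the protease family and its inhibitors, with earlier results of these data known. All 9 passed the filter on dim genes. The cells had been plated at 20000 per 35 mm dish in medium with 10% fetal bovine serum. They were then moved to a medium with 15% serum, 2 mM GlutaMax-I, 1% nonessential amino acids, 0.1 mM β-mercaptoethanol and basic fibroblast growth factor at 40 ng/ml. The same protocol text is given for all groups, which does not by itself show that the day 0 cells had been moved. Each culture is labelled with a chemical combination by its code name, SGCF or 6TCF, and its components are not stated in the labels. There were 6 groups, SGCF and 6TCF cells at days 0, 5 and 10 each, with 2 arrays in a group. The day 0 arrays carry the name of their combination too. No array comes from cells kept without a combination to day 5 or day 10, so each change from day 0 includes time in culture. It may also include the change of medium. The labels give no embryo number, sex or strain, and the 2 arrays of a group may be technical repeats, in which case p-values measure technical spread.

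Matrix metalloproteinases are zinc-dependent enzymes that are made as inactive precursors and are secreted or held at the cell membrane. Once activated they cut collagens, proteoglycans and other matrix proteins. TIMPs are secreted proteins that bind the active site of these enzymes and block it. Fibroblasts are a main source of both, and inflammatory cytokines and growth factors acting through AP-1 and ETS transcription factors are known inducers of the stromelysin and collagenase genes.

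Levels are log2(intensity + 16) after quantile normalization of 12 Affymetrix Mouse Genome 430A 2.0 arrays, and a change is a difference of such levels, given with its standard error (SE) from a limma fit across all genes. A gene was called when its p-value, adjusted by Benjamini-Hochberg over all 10674 genes, was under 0.05. Before normalization the median intensity was 60.9 to 86.2 on SGCF arrays and 102 to 142 on 6TCF arrays. The labels name no array batch. For contrasts between the arms, the arm and any difference in how the arrays were processed cannot be told apart. Replicate arrays correlated at r = 0.988 to 0.997 over all genes, arrays of different groups at 0.943 to 0.987. The 10 fibroblast markers were all measured, with a summed level of 15.5 to 16.1 on every array. Levels of different genes come from different probe sets and are not compared with each other.

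Mmp3, which encodes the secreted protease stromelysin-1, rose more than any other member in both arms. Under SGCF it read 7.32 and 7.53 on the day 0 arrays, 12.83 and 12.80 at day 5, and 12.06 and 11.61 at day 10. Under 6TCF the same days gave 6.99 and 6.89, then 11.14 and 10.86, then 12.11 and 12.20. The day 5 and day 10 arrays of both arms thus lay far above all 4 day 0 arrays. By day 5 the change was 5.39 ± 0.16 (SE) in SGCF cells, a 42.0-fold rise and rank 2 of all 10674 genes, and by day 10 it was 4.41 ± 0.16 (21.3-fold). In 6TCF cells it was 4.06 ± 0.16 by day 5 (16.7-fold) and 5.21 ± 0.16 by day 10 (37.1-fold, rank 4 of all genes). The adjusted p was 1.1e-09 by day 5 of SGCF and 1.0e-09 by day 10 of 6TCF.

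**Figure D1:**
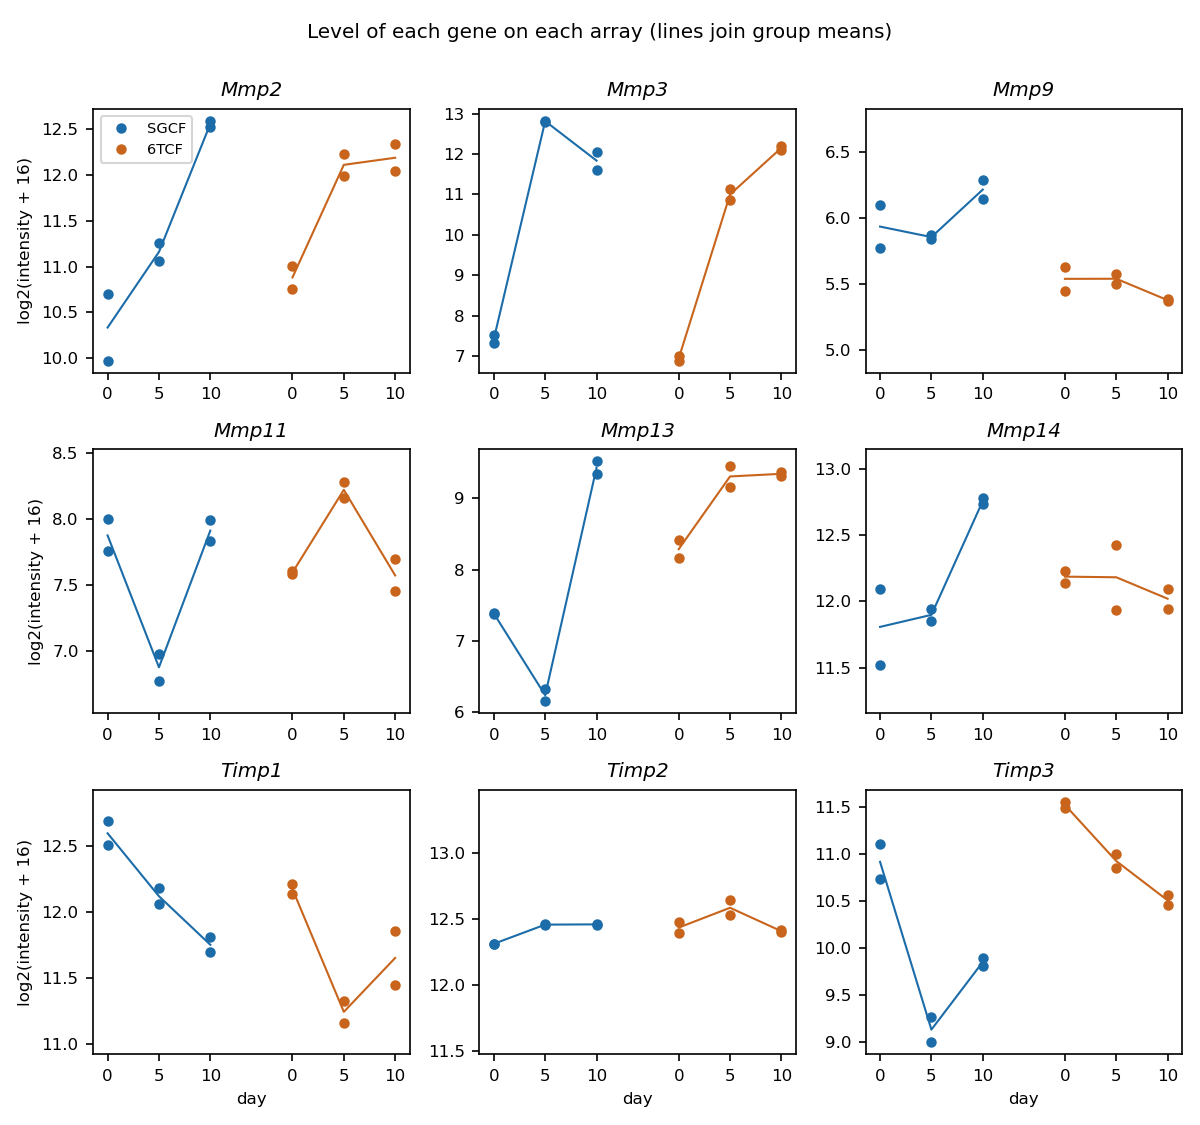
Level of each of the 9 genes, as log2(intensity + 16), on each array (points) at days 0, 5 and 10, with the SGCF arm left of the 6TCF arm and lines through the group means; each panel has its own vertical range. Mmp3 peaks at day 5 under SGCF (12.83 and 12.80) and at day 10 under 6TCF (12.11 and 12.20), Mmp11 and Mmp13 dip at day 5 of SGCF, and Timp1 and Timp3 lie below their day 0 level at both later days of each arm.

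The arms differed in the timing of Mmp3. Between day 5 and day 10 it fell by 0.98 on the log2 scale in SGCF cells (SE 0.16, adjusted p = 0.00095) and rose by 1.15 ± 0.16 in 6TCF cells (adjusted p = 0.0012). The change by day 5 was larger under SGCF than under 6TCF by 1.33 ± 0.22 (adjusted p = 0.0027). By day 10 it was the smaller of the 2, with a difference of -0.80 ± 0.22 (adjusted p = 0.023). That second difference did not pass the threshold in 6 of the 8 fits that each left out 1 array, in which it was between -0.58 and -0.85 with an adjusted p of 0.053 to 0.086; the arrays were replicate 2 of SGCF day 0 and day 10 and both replicates of 6TCF day 0 and day 10.

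Mmp13, the main interstitial collagenase of the mouse, moved in opposite directions in the arms by day 5. The SGCF arrays read 7.39 and 7.39 at day 0, 6.15 and 6.33 at day 5, and 9.34 and 9.52 at day 10. The 6TCF arrays read 8.41 and 8.16, then 9.16 and 9.45, then 9.37 and 9.32. In SGCF cells day 5 was the low point and day 10 lay well above day 0, while in 6TCF cells days 5 and 10 overlapped and both lay above day 0. The change by day 5 was -1.15 ± 0.14 in SGCF cells (2.21-fold lower, adjusted p = 7.4e-05) and 1.02 ± 0.14 in 6TCF cells (2.03-fold higher, adjusted p = 0.00017). Between day 5 and day 10 of SGCF, Mmp13 rose by 3.19 ± 0.14, or 9.12-fold, rank 13 of all genes in that contrast.

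By day 10 Mmp13 had risen in both arms, by 2.04 ± 0.14 with SGCF (4.12-fold) and by 1.06 ± 0.14 with 6TCF (2.08-fold). The difference in change was -2.17 ± 0.20 by day 5 (adjusted p = 4.2e-05) and 0.99 ± 0.20 by day 10 (adjusted p = 0.0045), SGCF minus 6TCF. Both differences kept their call in each of the 8 fits without 1 array, at -2.31 to -2.02 and 0.86 to 1.11. The day 0 arrays already differed, with Mmp13 lower in SGCF cells than in 6TCF cells by 0.90 on the log2 scale (-0.90 ± 0.14, adjusted p = 0.0020). At day 10 the levels of the arms overlapped.

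Mmp3 and Mmp13 lie in a run of neighbouring metalloproteinase genes on chromosome 9, in the order Mmp13, Mmp12, Mmp1b, Mmp3, Mmp1a, Mmp10, Mmp8, Mmp27, Mmp20 and Mmp7 of the RefSeq annotation. Their promoters are shown because both hold an AP-1 element close to the start site, as does the promoter of their neighbour Mmp10, which encodes stromelysin-2 and also rose. Each line below gives the 120 bases upstream of the RefSeq start site on the plus strand of GRCm38.p6, 5′ to 3′, with the AP-1 letters TGANTCA in capitals.
Mmp3, chr9:7445702-7445821: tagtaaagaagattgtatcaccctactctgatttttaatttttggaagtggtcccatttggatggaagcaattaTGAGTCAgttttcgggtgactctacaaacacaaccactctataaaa
Mmp13, chr9:7272394-7272513: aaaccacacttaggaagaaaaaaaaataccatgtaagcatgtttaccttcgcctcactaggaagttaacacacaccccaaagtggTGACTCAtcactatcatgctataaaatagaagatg
Mmp10, chr9:7502222-7502341: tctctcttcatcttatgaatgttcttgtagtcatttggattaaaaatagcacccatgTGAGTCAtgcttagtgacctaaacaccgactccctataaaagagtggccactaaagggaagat
In the RefSeq table, 7 of the 9 genes have a promoter window of 300 bases, all but Mmp2 and Mmp9. On both strands, TGANTCA was found in 2 of the 7 windows, Mmp3 with its first base at -46 and Mmp13 at -35, against 7.81% of all 32851 promoter windows. In the Mmp10 window it begins at -63. A TATA box spelled TATAAA was found in the same 2 members, against 13.6% of all windows. It begins at -7 in Mmp3 and at -16 in Mmp13, and at -29 in the Mmp10 window. All these distances depend on the annotated RefSeq start sites, which were not checked. The letters AGGAAG, a PEA3/ETS element, were found in 5 of the 7 windows (Mmp3, Mmp13, Mmp14, Timp1 and Timp3), against 35.4% of all windows. GGGCGG, a GC box, was found in 5 (Mmp11, Mmp14, Timp1, Timp2 and Timp3), against 35.7%, and CTTTGA, a TCF/LEF element, in Timp1 alone, against 16%. No AP-1 match overlapped another motif. A match says only that the letters are there.

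Mmp2 encodes gelatinase A, which cuts denatured collagen and basement membrane collagen. It read 10.70 and 9.97 at day 0 of SGCF, 11.06 and 11.26 at day 5, and 12.59 and 12.52 at day 10. With 6TCF it read 11.01 and 10.76, then 11.99 and 12.23, then 12.04 and 12.34. Each later SGCF group lay above the one before, although the day 0 arrays lay far apart (SD 0.51, n = 2), whereas in 6TCF cells days 5 and 10 overlapped. The rise by day 10 was 2.22 ± 0.21 under SGCF (4.66-fold, adjusted p = 5.9e-06) and 1.30 ± 0.21 under 6TCF (2.47-fold, adjusted p = 0.00035). By day 5 it was 0.82 ± 0.21 under SGCF (adjusted p = 0.012) and 1.23 ± 0.21 under 6TCF (adjusted p = 0.00087).

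The difference between the arms in the Mmp2 change was 0.92 ± 0.30 by day 10 (adjusted p = 0.041). It was lost in 6 of the 8 fits without 1 array, all but those without replicate 1 of SGCF day 0 or replicate 2 of 6TCF day 10, at 0.55 to 1.04 with an adjusted p of 0.066 to 0.15. Likewise the SGCF rise by day 5 was 0.46 without replicate 2 of SGCF day 0 (adjusted p = 0.085) and 0.72 without replicate 2 of SGCF day 5 (adjusted p = 0.084). A further Mmp2 probe set, 1416136_at, gave rises by day 10 of 2.43 ± 0.20 in SGCF cells and 1.28 ± 0.20 in 6TCF cells.

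Mmp9, gelatinase B, is made mainly by neutrophils, macrophages and stimulated connective tissue cells. Its brighter probe set stayed near the filter's floor of 5.25. It read 6.09 and 5.77, 5.87 and 5.84, and 6.14 and 6.29 at days 0, 5 and 10 of SGCF, and 5.63 and 5.44, 5.57 and 5.50, and 5.37 and 5.38 at the same days of 6TCF. In this probe set every SGCF array read above every 6TCF array after normalization, while the deposited intensities of the arms overlapped. None of the 9 contrasts was called for this probe set; the change by day 10 was 0.28 ± 0.13 with SGCF (95% interval -0.01 to 0.57) and -0.16 ± 0.13 with 6TCF (-0.45 to 0.13). Without replicate 1 of SGCF day 0 the change by day 10 of SGCF was 0.44 and was called (adjusted p = 0.021). It was also called, at 0.48, with all 4 day 0 arrays taken as 1 group (adjusted p = 0.032).

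The dimmer Mmp9 probe set, 1416298_at, was tested in a separate limma fit over 17128 probe sets with a gene name. It read 5.62 and 5.48 at day 0, 5.34 and 5.47 at day 5 and 6.41 and 6.15 at day 10 of SGCF, with both day 10 arrays above the others. Its change by day 10 was 0.73 ± 0.14 with SGCF (adjusted p = 0.0013) and -0.02 ± 0.14 with 6TCF (adjusted p = 0.92), a difference of 0.75 ± 0.19 (adjusted p = 0.017). The probe sets of Mmp9 thus disagree on whether the rise passed the test, and both lie close to the floor. With the mean of both probe sets, the change by day 10 of SGCF was 0.50 and was called (adjusted p = 0.0029).

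Mmp14 encodes MT1-MMP, a membrane-bound protease that activates the Mmp2 precursor at the cell surface. It read 12.10 and 11.52 at day 0, 11.85 and 11.94 at day 5, and 12.73 and 12.79 at day 10 of SGCF. With 6TCF it read 12.23 and 12.14, then 11.94 and 12.43, then 11.94 and 12.10. The day 10 SGCF arrays stood above the other 10 arrays. The change by day 10 was 0.95 ± 0.19 in SGCF cells (1.94-fold, adjusted p = 0.0020) and -0.17 ± 0.19 in 6TCF cells (interval -0.59 to 0.25), and these differed by 1.12 ± 0.27 (adjusted p = 0.012). By day 5 neither arm had a called change, at 0.09 ± 0.19 with SGCF and -0.0047 ± 0.19 with 6TCF.

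Without replicate 1 of 6TCF day 10, the Mmp14 difference by day 10 was 1.04 with an adjusted p of 0.0505. The other Mmp14 probe set, 1416572_at, gave 0.89 ± 0.16 by day 10 of SGCF (adjusted p = 0.00088), -0.43 ± 0.16 by day 10 of 6TCF (adjusted p = 0.043) and a difference of 1.32 ± 0.22 (adjusted p = 0.0019). It read 7.75 and 7.87 at day 10 of SGCF, against 7.07 and 6.78 at day 0 of SGCF.

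Mmp11, or stromelysin-3, is a secreted protease typical of stromal fibroblasts around tumours and in remodelling tissue. It read 7.998 and 7.75, 6.77 and 6.98, and 7.99 and 7.84 at days 0, 5 and 10 of SGCF, and 7.61 and 7.58, 8.16 and 8.28, and 7.45 and 7.69 at the same days of 6TCF. Day 5 was the lowest of the 6 groups with SGCF and the highest with 6TCF. By day 5 the change was -0.998 ± 0.14 in SGCF cells (2.00-fold lower, adjusted p = 0.00020) and 0.63 ± 0.14 in 6TCF cells (1.54-fold higher, adjusted p = 0.0051). The difference was -1.62 ± 0.20 (adjusted p = 0.00032), and it was called in all 8 fits without 1 array.

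By day 10 Mmp11 was at 0.04 ± 0.14 against day 0 with SGCF (interval -0.26 to 0.34) and -0.02 ± 0.14 with 6TCF (interval -0.32 to 0.28). From day 5 to day 10 it therefore rose by 1.03 ± 0.14 with SGCF (adjusted p = 0.00025) and fell by 0.65 on the log2 scale with 6TCF (SE 0.14, adjusted p = 0.011). The fall with 6TCF was -0.71 without replicate 1 of 6TCF day 5 (adjusted p = 0.051) and -0.53 without replicate 1 of 6TCF day 10 (adjusted p = 0.12).

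Timp1, the inhibitor gene most responsive to growth factors and cytokines, was lower at both later days in both arms. It read 12.69 and 12.50, 12.18 and 12.06, and 11.81 and 11.70 at days 0, 5 and 10 of SGCF. The 6TCF arrays read 12.21 and 12.13, 11.33 and 11.16, and 11.45 and 11.86. No later array overlapped the day 0 arrays of its own arm. The fall by day 10 was -0.84 ± 0.15 in SGCF cells (1.79-fold lower, adjusted p = 0.00073) and -0.52 ± 0.15 in 6TCF cells (1.43-fold lower, adjusted p = 0.013).

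By day 5 Timp1 had changed by -0.48 ± 0.15 in SGCF cells (adjusted p = 0.033) and by -0.93 ± 0.15 in 6TCF cells (adjusted p = 0.00051). The arms did not differ beyond the threshold in either change, with differences of 0.45 ± 0.21 by day 5 (interval -0.0014 to 0.91) and -0.32 ± 0.21 by day 10 (interval -0.78 to 0.13). The SGCF fall by day 5 was not called without replicate 1 of SGCF day 0 (-0.38, adjusted p = 0.13) or without replicate 1 or 2 of SGCF day 5 (-0.54, adjusted p = 0.073, and -0.42, adjusted p = 0.16). The 6TCF fall by day 10 was not called without replicate 1 of 6TCF day 0 (-0.48, adjusted p = 0.080) or replicate 1 of 6TCF day 10 (-0.32, adjusted p = 0.16).

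Timp3, the inhibitor that stays bound to the extracellular matrix and also blocks ADAM proteases, fell in both arms. It read 11.11 and 10.73, 8.999 and 9.26, and 9.80 and 9.90 at days 0, 5 and 10 of SGCF. The 6TCF arrays read 11.56 and 11.49, 11.00 and 10.85, and 10.56 and 10.46. Under SGCF the lowest arrays were those of day 5, and under 6TCF those of day 10. By day 5 the change was -1.79 ± 0.15 with SGCF (3.45-fold lower, adjusted p = 2.6e-06) and -0.60 ± 0.15 with 6TCF (1.51-fold lower, adjusted p = 0.0094). By day 10 the arms were close, at -1.07 ± 0.15 with SGCF (2.09-fold lower) and -1.02 ± 0.15 with 6TCF (2.02-fold lower), with a difference of -0.05 ± 0.21 (interval -0.50 to 0.40).

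The difference by day 5 for Timp3 was -1.19 ± 0.21 (adjusted p = 0.0032), and all 8 fits without 1 array called it. From day 5 to day 10 Timp3 rose by 0.72 ± 0.15 with SGCF (adjusted p = 0.0041), and with 6TCF it changed by -0.42 ± 0.15 (adjusted p = 0.072). The fall by day 5 of 6TCF was not called without replicate 1 of 6TCF day 0 (-0.57, adjusted p = 0.069) or replicate 2 of 6TCF day 5 (-0.52, adjusted p = 0.064). At day 0 Timp3 was lower in SGCF than in 6TCF cells, with a difference of -0.61 ± 0.15 (adjusted p = 0.018). That call ended without replicate 2 of SGCF day 0 (-0.42, adjusted p = 0.10) and without replicate 1 or 2 of 6TCF day 0 (-0.57, adjusted p = 0.11, and -0.64, adjusted p = 0.094).

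All 4 probe sets of Timp3 were lower at day 10 than at day 0, with changes of -0.87 to -1.19 in SGCF cells and of -0.99 to -1.08 in 6TCF cells. The difference by day 5 was called in 1449335_at and 1419089_at (-1.08 ± 0.23, adjusted p = 0.014), against 5.04% of all probe sets called lower in that contrast. It was not called in 1449334_at (-0.53 ± 0.21, adjusted p = 0.16) or 1419088_at (-0.49 ± 0.18, adjusted p = 0.13).

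Timp2 encodes an inhibitor that also takes part, together with MT1-MMP, in the activation of the Mmp2 precursor. Its brightest probe set, 1460287_at, hardly varied. It read 12.31 and 12.31, 12.46 and 12.45, and 12.45 and 12.46 at days 0, 5 and 10 of SGCF, and 12.48 and 12.39, 12.64 and 12.53, and 12.40 and 12.41 at the same days of 6TCF. The 6 group means spanned 0.27, and none of the 9 contrasts was called. By day 10 the change was 0.15 ± 0.11 with SGCF (interval -0.09 to 0.38) and -0.03 ± 0.11 with 6TCF (interval -0.26 to 0.21).

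The remaining Timp2 probe sets disagreed with it. Of its 6 probe sets, 1437081_at lay below the floor, and the other 4 all rose by day 10 of SGCF, by 0.80 ± 0.16 in 1454677_at, 1.03 ± 0.20 in 1433662_s_at, 1.17 ± 0.17 in 1450040_at and 1.00 ± 0.16 in 1420924_at. Across all probe sets, 17.9% were called higher in that contrast. In 1450040_at, the largest of these rises (adjusted p = 0.00022), the SGCF arrays read 10.06 and 9.47 at day 0, 10.38 and 10.54 at day 5 and 11.04 and 10.84 at day 10, each day above the one before. With 6TCF it read 10.35 and 10.28, then 10.61 and 10.57, then 9.91 and 10.00, with day 10 the lowest.

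In 6TCF cells the same 4 Timp2 probe sets changed by day 10 by -0.28 to -0.46, and 1420924_at was the one called (-0.46 ± 0.16, adjusted p = 0.039), where 21.6% of all probe sets were called lower. Their differences by day 10 were 1.15 ± 0.23, 1.30 ± 0.28, 1.53 ± 0.24 and 1.45 ± 0.23, SGCF minus 6TCF, and all 4 were called, against 11.2% of all probe sets called higher. With the mean of its probe sets in place of the brightest, Timp2 rose by 0.69 by day 10 of SGCF (adjusted p = 0.00098), with a difference of 0.98 between the arms (adjusted p = 0.0026). Where in the transcript each probe set lies was not examined.

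**Figure D2:**
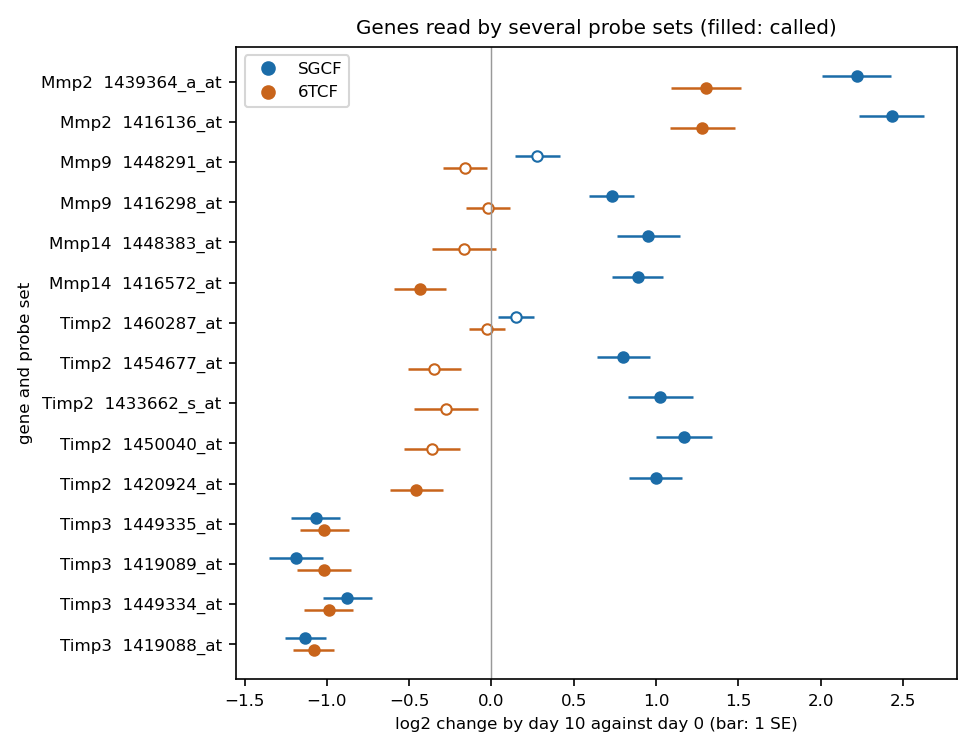
Fitted log2 change by day 10 against day 0 (horizontal axis, bar 1 SE) for each probe set above the floor of the 5 genes with several probe sets, SGCF above 6TCF in each pair; filled points were called. The Mmp2, Mmp14 and Timp3 probe sets of a gene lie together, the brightest Timp2 probe set (0.15 with SGCF) stands apart from 4 others at 0.80 to 1.17, and the Mmp9 pair differs at 0.28 and 0.73.

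Since the 9 genes were chosen with earlier results of these data known, counts of called members are descriptive. By day 5 of SGCF, 6 of the 9 genes were called, against 25.5% of all genes tested. Mmp2 and Mmp3 were higher and Mmp11, Mmp13, Timp1 and Timp3 lower, against 12.8% of all genes called higher and 12.7% called lower. By day 10 of SGCF 6 were called again (38.8% of all genes), with Mmp2, Mmp3, Mmp13 and Mmp14 higher and Timp1 and Timp3 lower (20.5% and 18.3% of all genes). Mmp11 and Mmp13 were thus no longer below day 0. Mmp9 and Timp2, each read from its brightest probe set, were not called by day 10 of SGCF. With the mean of their probe sets both were called higher.

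From day 5 to day 10 of SGCF, 6 of the 9 were called, against 21.7% of all genes. Mmp2, Mmp11, Mmp13, Mmp14 and Timp3 were higher (11.7% of all genes called higher) and Mmp3 was lower (9.97% called lower). The median change over the 9 genes was 0.72, and -0.0039 over all genes tested. These are the days over which the most members rose.

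By day 5 of 6TCF, 6 of the 9 were called (27.7% of all genes), with Mmp2, Mmp3, Mmp11 and Mmp13 higher and Timp1 and Timp3 lower (15.1% and 12.6% of all genes). By day 10 of 6TCF 5 were called, against 43.2% of all genes, which is not far from this background. Mmp2, Mmp3 and Mmp13 were higher and Timp1 and Timp3 lower (23.2% and 20% of all genes). From day 5 to day 10 of 6TCF 2 were called, Mmp3 higher and Mmp11 lower, against 15.8% of all genes, 8.69% higher and 7.12% lower. The median absolute change of the 9 genes in this last contrast was 0.18, and 0.22 over all genes.

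**Figure D3:**
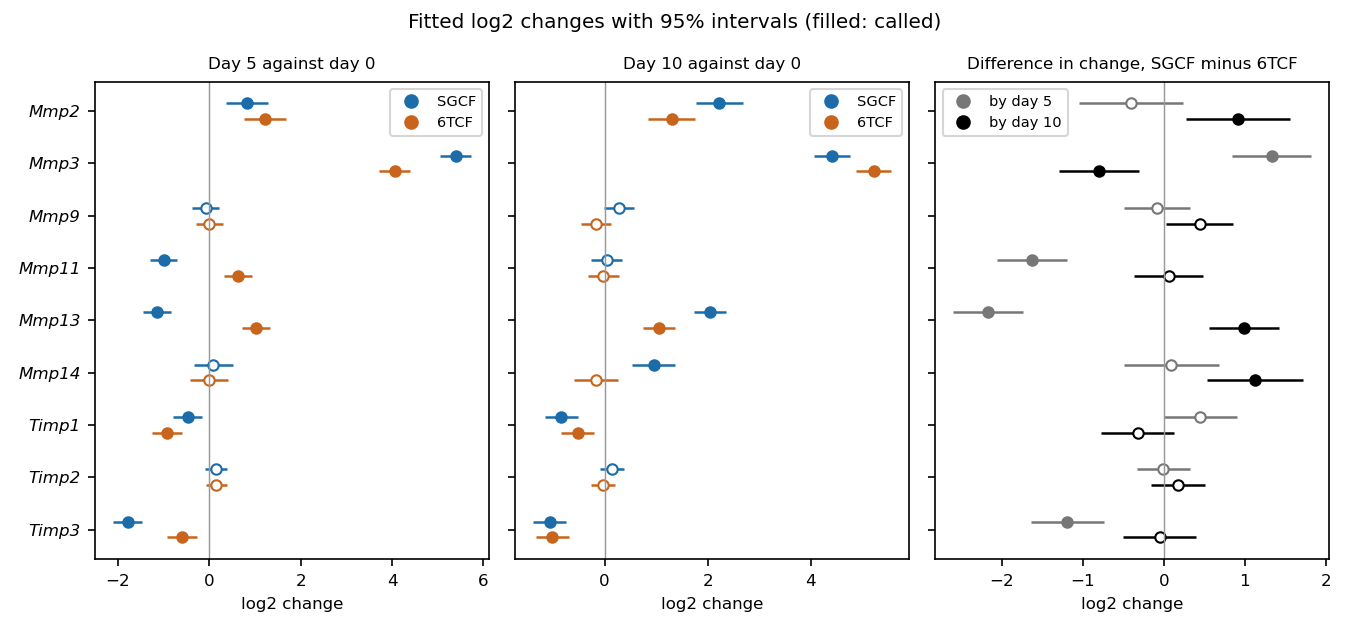
Fitted log2 change of each gene with its 95% interval: by day 5 (left panel) and by day 10 (middle panel) against day 0 in SGCF (upper of each pair) and 6TCF cells, and the difference in change, SGCF minus 6TCF (right panel; by day 5 above by day 10). Filled points were called; Mmp11 and Mmp13 lie on opposite sides of 0 in the arms by day 5 (-0.998 and 0.63, -1.15 and 1.02), and Mmp14 rose by day 10 with SGCF alone (0.95, against -0.17 with 6TCF, difference 1.12).

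Set against each other, the changes of the arms differed by day 5 in 4 of the 9 genes, against 8.98% of all genes. Mmp3 had the larger change under SGCF (2.91% of all genes called higher) and Mmp11, Mmp13 and Timp3 the lower one (6.06% called lower). By day 10 the changes differed in 4 as well, against 25.7% of all genes, with Mmp2, Mmp13 and Mmp14 higher under SGCF (12.3% of all genes) and Mmp3 lower (13.4% of all genes). Mmp3 and Mmp13 were called at both days, each with the opposite sign by day 10. Both contrasts share the day 0 arrays of each arm. The count by day 10 was 1 without replicate 1 of 6TCF day 10 and 2 without replicate 2 of SGCF day 0, replicate 2 of SGCF day 10 or either replicate of 6TCF day 0.

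At day 0 itself, 2 of the 9 genes were called between the arms, against 17.4% of all genes. Both, Mmp13 and Timp3, were lower in SGCF cells (8.81% of all genes called lower, 8.59% higher). The arrays of the arms did not overlap for any of the 9 genes at day 0, which also held for 59.1% of all genes. Without replicate 1 of SGCF day 0, 5 of the 9 were called, since Mmp2 (-0.91, adjusted p = 0.0058), Mmp3 (0.59, adjusted p = 0.039) and Mmp14 (-0.67, adjusted p = 0.023) then passed. Without replicate 2 of SGCF day 0, Mmp9 (0.56, adjusted p = 0.029) was called beside Mmp13. Without replicate 1 or replicate 2 of 6TCF day 0, Mmp13 alone was called. With all 4 day 0 arrays taken as 1 group, the day 5 calls of Mmp2 (0.55, adjusted p = 0.11) and Timp1 (-0.27, adjusted p = 0.30) with SGCF and of Timp3 with 6TCF (-0.29, adjusted p = 0.32) ended.

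Macrophages also make several of these enzymes, and their markers moved with arm and day. Of 18 markers on the array 17 were tested. At day 0, 16 were higher in SGCF than in 6TCF cells, against 8.59% of all genes. By day 5 and by day 10 of SGCF 16 of the 17 were lower than at day 0 (12.7% and 18.3% of all genes). In 6TCF cells 15 were lower by day 5 and 12 by day 10 (12.6% and 20% of all genes). Cd14, the lipopolysaccharide co-receptor, was the marker called higher in all 4 of these contrasts. The summed level of the list was 13.0 to 13.2 at day 0, 9.65 to 10.0 at day 5 and 9.62 to 9.85 at day 10 of SGCF. With 6TCF it was 11.90 to 11.96, 10.1 to 10.3 and 10.9 to 11.0.

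Csf1r, the macrophage growth factor receptor, averaged 9.36, 6.58 and 6.62 at days 0, 5 and 10 of SGCF, and 8.13, 8.30 and 8.09 with 6TCF. Ptprc, the pan-leukocyte marker, averaged 4.67 to 4.80 at the later days of both arms, below the floor of 5.25, and 6.69 at day 0 of SGCF and 5.62 at day 0 of 6TCF. The part of these cells in the levels of Mmp9, Timp1 or any other member was not tested, and in such bulk RNA fewer cells of a type and less RNA per cell cannot be told apart. Among neutrophil markers, 7 were on the array and 4 tested. S100a8, a calcium-binding protein of neutrophils and stressed epithelium, was higher at both later days of each arm, while the granule protein genes Elane and Mpo averaged 4.77 to 5.48 in every group, close to or below the floor. Elane was lower by day 5 of 6TCF (-0.51 ± 0.15, adjusted p = 0.028).

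Markers of other cell types were counted too. Of 10 cartilage and bone markers on the array 6 were tested, with 2 lower by day 10 of SGCF and 3 lower by day 10 of 6TCF and none higher. Of 8 endothelial markers 5 were tested, and 3 were higher and 1 lower by day 10 in each arm. Their summed level was 7.74 to 7.85, 10.1 to 10.2 and 9.33 to 9.52 at days 0, 5 and 10 of SGCF, and 8.25 to 8.49, 9.68 to 9.69 and 9.50 to 9.60 at the same days of 6TCF. Of 5 keratinocyte markers 4 were tested, with 2 lower by day 10 of SGCF and 1 higher by day 10 of 6TCF. The part of these cells was not tested. Of the 10 fibroblast markers, 4 were higher and 3 lower by day 10 of SGCF, and 3 higher and 6 lower by day 10 of 6TCF. Over all genes, 20.5% were called higher and 18.3% lower by day 10 of SGCF, and 23.2% and 20% by day 10 of 6TCF.

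The 3′ and 5′ ends of the control transcripts were compared as a sign of RNA quality. The signal of the actin control at the 3′ end exceeded that at the 5′ end by 0.33 ± 0.08, 0.45 ± 0.04 and 0.46 ± 0.01 on the log2 scale at days 0, 5 and 10 of SGCF (SD, n = 2). With 6TCF it did so by 0.34 ± 0.06, 0.82 ± 0.08 and 1.04 ± 0.004 (SD, n = 2). In Gapdh, the other such control, it was -0.05 to 0.02, 0.03 to 0.17 and 0.10 to 0.12 at days 0, 5 and 10 of SGCF. With 6TCF it was 0.34 to 0.44, 0.40 to 0.59 and 0.490 to 0.491. The actin difference was thus higher at the later days, most of all with 6TCF, whereas for Gapdh the arms already differed at day 0. The part of RNA quality in the values of the members, the Timp2 probe sets among them, was not tested.

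Outside the 9 genes, 12 of 17 further metalloproteinase genes had a probe set and 8 of them passed the filter. Their median change by day 10 was 0.0021 with SGCF and 0.67 with 6TCF, against 0.03 and -0.01 over all genes tested. By day 10 of SGCF 2 of the 8 were called higher and 1 lower (38.8% of all genes called). By day 10 of 6TCF 4 were called higher and 2 lower (43.2%). Mmp10 and Mmp19 were called higher at both later days in both arms and Mmp16 lower. Mmp23 was called lower by day 5 of both arms and by day 10 of 6TCF, and Mmp17 higher by day 10 of 6TCF. The other stromelysin gene, Mmp10, averaged 5.72, 9.66 and 7.63 at days 0, 5 and 10 of SGCF, a change by day 5 of 3.94 ± 0.22. With 6TCF it averaged 5.99, 8.06 and 7.77, a change by day 5 of 2.08 ± 0.22. The difference by day 5 was 1.86 ± 0.31 (adjusted p = 0.0027), in the same direction as that of Mmp3, and by day 10 it was 0.12 ± 0.31 (adjusted p = 0.80).

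Mmp19, a secreted protease of vessels and stroma, rose by 2.32 ± 0.14 by day 10 of SGCF and by 1.55 ± 0.14 by day 10 of 6TCF. Mmp16, a membrane-bound protease like Mmp14, fell in both, with changes of -0.82 ± 0.14 with SGCF and -1.51 ± 0.14 with 6TCF. Mmp12, the macrophage elastase, changed by -0.19 ± 0.13 by day 10 of SGCF (adjusted p = 0.28) and rose by 0.85 ± 0.13 by day 10 of 6TCF. The neighbours Mmp1a, Mmp1b, Mmp8 and Mmp20 of the chromosome 9 run stayed below the floor in every group, with means of 4.54 to 5.02.

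**Figure D4:**
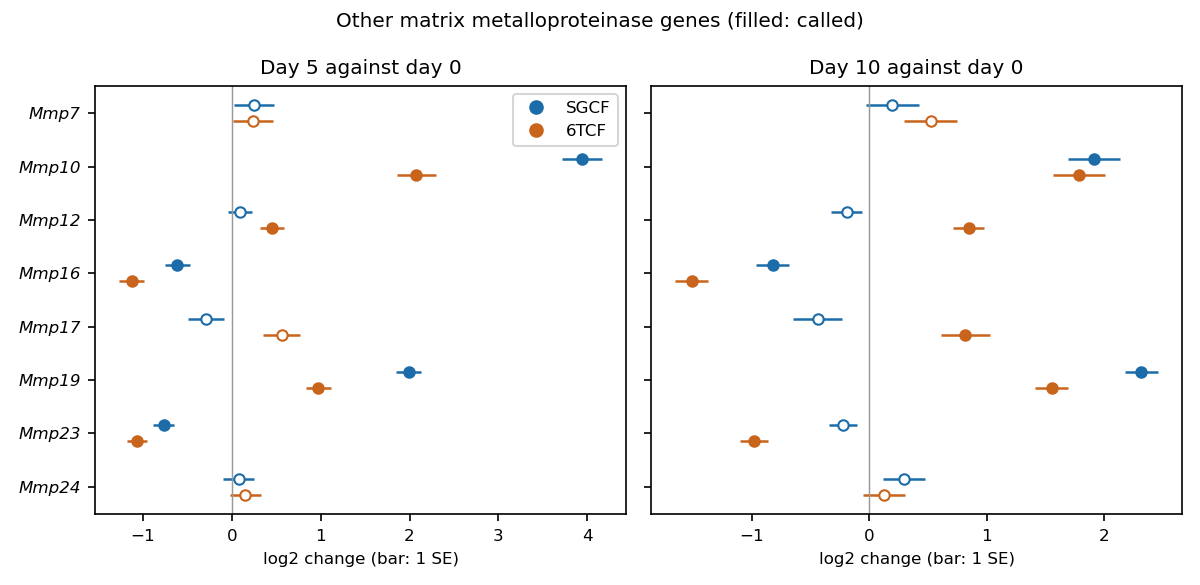
Fitted log2 change by day 5 (left) and by day 10 (right) against day 0, with 1 SE, for the 8 further metalloproteinase genes that passed the filter, SGCF above 6TCF in each pair; filled points were called. Mmp10 shows the largest change in the plot (3.94 by day 5 of SGCF), Mmp19 lies right of 0 and Mmp16 left of 0 in both arms and at both days.

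All 16 further inhibitors and regulators of these enzymes were tested. By day 10 of SGCF 6 were higher and 7 lower, and by day 10 of 6TCF 4 were higher and 8 lower. The median change was 0.06 with SGCF and -0.47 with 6TCF. Of all genes, 38.8% were called by day 10 of SGCF and 43.2% by day 10 of 6TCF. A2m, a plasma inhibitor that traps proteases of all classes, rose by 1.06 ± 0.20 with SGCF and 3.36 ± 0.20 with 6TCF, a difference of -2.30 ± 0.29 (adjusted p = 0.00026). Thbs1, a matricellular protein that binds Mmp2 and Mmp9, fell by day 10, with changes of -1.10 ± 0.20 with SGCF and -2.91 ± 0.20 with 6TCF. Tfpi2, a serine protease inhibitor of the matrix, fell by day 10, with changes of -1.74 ± 0.19 with SGCF and -2.46 ± 0.19 with 6TCF. Pcolce2, an enhancer of procollagen cleavage, fell as well, with changes of -1.59 ± 0.14 with SGCF and -2.34 ± 0.14 with 6TCF.

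Timp4, the remaining TIMP gene, was called higher by day 10 of SGCF (0.91 ± 0.21, adjusted p = 0.0053) but not of 6TCF (0.35 ± 0.21, adjusted p = 0.21), and the difference of 0.56 ± 0.30 was not called (adjusted p = 0.20). Reck, a membrane-anchored inhibitor of Mmp2, Mmp9 and Mmp14, rose by 0.83 ± 0.15 by day 10 of SGCF and changed by 0.08 ± 0.15 with 6TCF, a called difference of 0.75 ± 0.22 (adjusted p = 0.026). By day 5 of SGCF Reck was lower, at -0.58 ± 0.15 (adjusted p = 0.015).

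Plasmin is a known activator of secreted metalloproteinase precursors, and of its 13 listed pathway genes 10 were tested. By day 10 of SGCF 3 were higher and 4 lower (38.8% of all genes called), and by day 10 of 6TCF 4 were higher and 3 lower (43.2%). The median change was 0.06 with SGCF and -0.05 with 6TCF. The activator gene Plat rose by 0.62 ± 0.16 with SGCF and 1.10 ± 0.16 with 6TCF, whereas Plau fell, with changes of -0.80 ± 0.12 with SGCF and -0.62 ± 0.12 with 6TCF. Plaur, the urokinase receptor, fell, with changes of -0.89 ± 0.19 with SGCF and -1.74 ± 0.19 with 6TCF. Serpini1, an inhibitor of the Plat product, rose by 1.85 ± 0.14 with SGCF and 1.86 ± 0.14 with 6TCF. Hgf, a growth factor activated by related proteases, rose by 1.01 ± 0.21 with SGCF and 1.28 ± 0.21 with 6TCF. Serpinb2, an inhibitor of urokinase, fell, with changes of -1.61 ± 0.24 with SGCF and -0.91 ± 0.24 with 6TCF.

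Of 25 ADAM and ADAMTS genes, whose products Timp3 inhibits in part, 18 were tested. By day 10 of SGCF 4 were higher and 4 lower, and by day 10 of 6TCF 3 were higher and 3 lower. These counts are not far from the 38.8% and 43.2% of all genes called in these contrasts. The median change was 0.03 with SGCF and 0.15 with 6TCF. Adamts15, a proteoglycan-cutting enzyme, rose by 2.39 ± 0.18 by day 10 of SGCF and 3.37 ± 0.18 by day 10 of 6TCF. Adamts5, the main aggrecanase of the mouse, fell by day 5, with changes of -3.19 ± 0.19 with SGCF and -2.19 ± 0.19 with 6TCF. By day 10 it was at -0.08 ± 0.19 with SGCF (adjusted p = 0.78) and still lower with 6TCF, at -1.15 ± 0.19.

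Adam12, a membrane-bound protease of mesenchymal cells, fell, with changes of -3.09 ± 0.17 by day 5 and -1.32 ± 0.17 by day 10 of SGCF. With 6TCF it changed by 0.12 ± 0.17 and 0.19 ± 0.17, and both differences were called (-3.21 ± 0.24 and -1.51 ± 0.24). Adamts1 had a called change of -1.37 ± 0.21 by day 5 and rose by 1.98 ± 0.21 by day 10 of SGCF, the same order of signs as Mmp13. Adam19 fell by day 10, with changes of -0.51 ± 0.17 with SGCF and -1.67 ± 0.17 with 6TCF. Adamts4 changed by 0.16 ± 0.24 with SGCF (adjusted p = 0.63) and rose by 0.69 ± 0.24 with 6TCF (adjusted p = 0.035).

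Of 15 genes for AP-1, ETS and RUNX factors, which act on metalloproteinase promoters, 12 were tested. By day 5 of SGCF 5 were higher and 2 lower, and by day 5 of 6TCF 1 was higher and 4 lower. By day 10 it was 3 higher and 2 lower with SGCF and 1 higher and 6 lower with 6TCF, with a median change of 0.10 with SGCF and -0.40 with 6TCF. Of all genes, 25.5% and 27.7% were called by day 5 of SGCF and 6TCF, and 38.8% and 43.2% by day 10. The AP-1 genes Jun and Fosl1 rose by 1.29 ± 0.19 and 1.29 ± 0.18 by day 5 of SGCF, at the peak of Mmp3 and the low point of Mmp13, and changed by 0.25 ± 0.19 and 0.37 ± 0.18 by day 5 of 6TCF. Their differences by day 5 were called, at 1.05 ± 0.27 (adjusted p = 0.031) and 0.92 ± 0.25 (adjusted p = 0.037). Fos and Junb, also AP-1 genes, went the other way and were called lower by day 5 of SGCF. Etv4, Etv5 and Elf1, of the ETS family, were also called higher by day 5 of SGCF. By day 10 Ets2 rose by 1.35 ± 0.24 with SGCF, and Ets1 fell, with changes of -0.83 ± 0.17 with SGCF and -1.88 ± 0.17 with 6TCF.

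By day 10 Elf1, an ETS gene, rose by 0.55 ± 0.16 with SGCF and fell, with a change of -0.61 ± 0.16 with 6TCF. Jund, of the AP-1 family, rose by 0.46 ± 0.16 by day 10 of SGCF and fell, with a change of -0.96 ± 0.16 by day 10 of 6TCF. Runx1 changed by 0.16 ± 0.18 with SGCF (adjusted p = 0.54) and fell, with a change of -0.63 ± 0.18 with 6TCF. Of the 12 factor genes, the difference between the arms was called higher under SGCF in 4 by day 5 and in 4 by day 10, against 2.91% and 12.3% of all genes.

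Of 14 cytokines and receptors known to induce metalloproteinases, 12 were tested, with 5 higher and 2 lower by day 10 of SGCF and 3 higher and 3 lower by day 10 of 6TCF. Their median change was 0.15 with SGCF and 0.01 with 6TCF. The share of all genes called was 38.8% by day 10 of SGCF and 43.2% by day 10 of 6TCF. Il1r1, the signalling receptor for interleukin-1, rose by 1.12 ± 0.12 with SGCF and 1.66 ± 0.12 with 6TCF, while Il1rn, its natural antagonist, fell, with changes of -2.12 ± 0.17 with SGCF and -1.85 ± 0.17 with 6TCF. Tgfb2, a growth factor of the TGF-beta family, changed by -0.34 ± 0.14 by day 5 of SGCF (adjusted p = 0.11) and rose by 1.76 ± 0.14 by day 5 of 6TCF. By day 10 it had risen by 2.96 ± 0.14 with SGCF and 1.41 ± 0.14 with 6TCF.

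The members did not share a single course over the 6 groups. Across the 6 group means, as a description over groups that share arrays and normalization, Mmp2 correlated with Mmp13 at r = 0.76 and with Timp1 at -0.87, Mmp3 with Timp3 at -0.80, and Mmp11 with Mmp13 at 0.73. Mmp3 and Mmp13, both with an AP-1 match, correlated at 0.11. Mmp3 was highest at day 5 of SGCF and Mmp11 at day 5 of 6TCF, while Mmp2, Mmp9, Mmp13 and Mmp14 had their highest mean at day 10 of SGCF. For Mmp13 those arrays overlapped the 6TCF arrays of day 10, and for Mmp2 and Mmp14 they did not overlap the next group.

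Timp1 had its highest mean at day 0 of SGCF and Timp3 at day 0 of 6TCF, in each case with no overlap with the next group, so neither inhibitor gene returned to its day 0 level in either arm. For Timp1 the order continued with day 0 of 6TCF and day 5 of SGCF, which overlapped each other. For Timp3 it continued with day 5 of 6TCF and day 0 of SGCF, which overlapped, and ended with day 5 of SGCF.

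Genes with the most similar course were looked for among 2787 genes whose 6 group means spanned at least 1, by Pearson correlation of the 6 means. Nearest to Mmp2 were Slc25a51 (r = 0.988), Grina (0.987) and Cebpb (0.984), and nearest to Mmp3 were Ngly1 (0.996), Fam117a (0.991) and Mgst3 (0.991). Mmp13 was closest to Plxdc2 (0.986), Dnmt3a (0.973) and Sufu (0.973), while for Mmp11 no gene exceeded the 0.875 of Slit3, followed by Igfbp5 (0.858) and Nid2 (0.815). Timp1 was closest to Rgs19 (0.986), Nrros (0.979) and Sike1 (0.972), and Timp3 to Sh3bgr (0.992), Meg3 (0.989) and Pmepa1 (0.987). These are the highest values among all candidates, and no p is given for them.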

How the data were processed

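RNA was measured on 12 Affymetrix Mouse Genome 430A 2.0 arrays, 2 per combination and day, and whether the 2 came from separate cultures is not stated in the labels. The values deposited by the authors are linear intensities, 1 per probe set and array. RMA, MAS5 and limma are named in the submitters' processing notes without versions or roles, and how the deposited intensity was normalized was not stated. Affymetrix arrays hold no read depth, so the number of arrays limits the precision.

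Intensities were taken as log2(intensity + 16) and quantile normalized between arrays. Of 22690 probe sets, 64 were controls, 20380 had 1 gene symbol and 691 several, and those with several were not named. Each of 12393 genes was read from its probe set with the highest mean, and the 10674 genes whose highest group mean exceeded the 25th percentile, 5.25, were tested. Group means were fitted with limma 3.58.1 in R 4.3.3 on all 12 arrays (6 residual and 5.75 prior degrees of freedom), and p-values were adjusted by Benjamini-Hochberg over all genes. The fit was tested on simulated data. A separate fit over 17128 probe sets, added after the data had been seen, describes the further probe sets of the 9 genes. Promoter sequences are those of RefSeq, GRCm38.p6.

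The named genes are the 9 members, the 3 called list genes with the largest change by day 10 per list and arm, known partners of a member, and the 3 genes most like a member. The members and lists were chosen with earlier results of these data known. Jun, Fosl1, Fos, Junb, Csf1r, Ptprc, Cd14, S100a8, Elane and Mpo were named after their values were seen. So were Mmp10 and the 4 dim genes of its chromosome run beyond the rule.

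Alternatives were pseudocounts of 1 and 64, median scaling, cyclic loess, no filter, the mean of a gene's probe sets, limma-trend with robust moderation, the replicate number as a block, each arm alone, all 4 day 0 arrays as 1 group, and leaving out each array. The replicate numbers were checked for pairing by correlating deviations from the group means.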

Additional observations from a re-analysis of the deposited data

Results flagged for a closer look

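For the following results the change from day 0 differed between the arms by an interaction test in limma, adjusted over all genes. By day 5 the change in SGCF minus that in 6TCF was 1.33 ± 0.22 for Mmp3 (SE, adjusted p = 0.0027), -1.62 ± 0.20 for Mmp11 (adjusted p = 0.00032), -2.17 ± 0.20 for Mmp13 (adjusted p = 4.2e-05) and -1.19 ± 0.21 for Timp3 (adjusted p = 0.0032). By day 10 it was 0.92 ± 0.30 for Mmp2 (adjusted p = 0.041), -0.80 ± 0.22 for Mmp3 (adjusted p = 0.023), 0.99 ± 0.20 for Mmp13 (adjusted p = 0.0045) and 1.12 ± 0.27 for Mmp14 (adjusted p = 0.012). All 12 arrays entered each test. In fits that each left out 1 array, the differences by day 10 of Mmp2, Mmp3 and Mmp14 lost their call in at least 1 fit. The Timp3 difference by day 5 was smaller and not called in its probe sets 1449334_at and 1419088_at.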

How the results depend on the processing

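The 2 arrays per group, and values near the floor for Mmp9, limit what could be called. The 2 members called from day 5 to day 10 of 6TCF became 4 with a pseudocount of 64, with the mean of probe sets and with limma-trend, and 1 to 2 without 1 array. The 2 called at day 0 became 4 with median scaling and with limma-trend, and 1 to 5 without 1 array. The 4 differences by day 10 became 1 to 5 without 1 array. With the mean of probe sets the differences by day 10 of Mmp9 (0.60, adjusted p = 0.015) and Timp2 (0.98, adjusted p = 0.0026) were called too. Both genes were then also called higher by day 10 of SGCF (0.50 and 0.69). The Mmp2 difference by day 10 was not called with a pseudocount of 1 (adjusted p = 0.065). Timp1 by day 5 of SGCF was not called with each arm fitted alone (adjusted p = 0.055). The replicate numbers showed no consistent pairing of the samples (15 pairs of groups, r from -0.277 to 0.110), which does not exclude a pairing with a small effect. With the replicate number as a block the Mmp2 difference by day 10 stayed at 0.92 with an adjusted p of 0.052, so that 3 of the 4 differences were called, and no other member's call changed.

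The sign turned only in uncalled values. With a pseudocount of 64 Mmp9 was at -0.00023 by day 5 of 6TCF. With median scaling Mmp11 was at -0.00066 and Timp2 at -0.0090 by day 10 of SGCF, Timp2 at -0.25 from day 5 to day 10 of SGCF and at -0.011 by day 5 of 6TCF, and its difference by day 5 at 0.25. With cyclic loess Mmp11 by day 10 of 6TCF was at 0.031 and the Timp2 difference by day 5 at 0.039, which was 0.30 with the mean of probe sets. With all 4 day 0 arrays as 1 group Mmp9 was at 0.12 and Mmp14 at -0.099 by day 5 of SGCF, Mmp9 at -0.20 and Mmp14 at 0.19 by day 5 of 6TCF, and Mmp14 at 0.023 and Timp2 at 0.034 by day 10 of 6TCF. Without 1 array, Mmp9 ranged from -0.24 to 0.083 and Mmp14 from -0.20 to 0.38 by day 5 of SGCF, Mmp11 from -0.085 to 0.16 by day 10 of SGCF, and Timp2 from -0.0042 to 0.0081 between these days. With 6TCF the ranges were -0.092 to 0.094 for Mmp9 and -0.25 to 0.24 for Mmp14 by day 5, -0.14 to 0.099 for Mmp11 and -0.072 to 0.017 for Timp2 by day 10, and -0.073 to 0.23 for Mmp2, -0.11 to 0.18 for Mmp13 and -0.41 to 0.082 for Mmp14 from day 5 to day 10. For differences they were -0.24 to 0.082 for Mmp9, -0.19 to 0.38 for Mmp14 and -0.063 to 0.053 for Timp2 by day 5, and -0.062 to 0.18 for Mmp11 and -0.24 to 0.14 for Timp3 by day 10.

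Over all genes, counts of calls without 1 array were 1375 to 1637 from day 5 to day 10 of SGCF (2318 with all arrays), 1759 to 2393 by day 5 of 6TCF (2958), 370 to 1452 from day 5 to day 10 of 6TCF (1688), 386 to 3014 at day 0 (1857), 566 to 1324 for the difference by day 5 (958) and 1447 to 3834 by day 10 (2740). With each arm alone they were 1492 with SGCF and 2684 with 6TCF from day 5 to day 10. In the same SGCF contrast 54.1% of calls were higher, against 40.3% with median scaling. The causes were not tested.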
